A study of Mus musculus with 12 samples.

Results

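Chemokines are small secreted proteins that guide leukocytes, and chemokine receptors are the membrane proteins that read them. The group described here held every gene of the array with the symbol Ccl, Cxcl, Ccr or Cxcr followed by digits alone, together with Cx3cl1, Cx3cr1 and Xcl1 and without Cxcl17. It had 44 of the 11807 genes on the array, of which 31 were ligands and 13 were receptors. Each gene was read by its probe set with the highest mean over the 12 arrays. Total RNA came from flash frozen stomach and colon of 16 week old C57BL/6 mice, with no treatment. The 3 genotypes were wild type (WT), heterozygous for Spdef (HET) and Spdef knockout (KO), and each genotype in each tissue had 2 arrays, which made 6 groups. Spdef encodes an ETS family transcription factor of mucus-producing cells. The labels neither describe the targeted allele nor tie the arrays to individual animals. The p-values therefore reflect the spread among these arrays, which may be technical.

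Chemokines bind receptors that signal through G proteins, and cells that carry a given receptor move towards its ligand. In the gut wall, epithelial cells make several of them: Ccl20 draws cells that carry Ccr6, such as B cells and immature dendritic cells, Ccl25 draws lymphocytes that carry Ccr9 in the small intestine, and Ccl28 draws IgA plasma cells that carry Ccr10. Others are made by stromal cells, such as Cxcl12 and Cxcl13, or by macrophages and other myeloid cells, as is known of Ccl6 and Ccl9.

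Levels are given as log2(intensity + 16), taken after the arrays were quantile normalized, so differences of dim genes are understated. A gene was tested in a tissue if it reached the filter level of 6.53, an intensity of 76.5, in at least 2 of its 6 arrays. Where 1 of the means compared lay below that level, the difference is also given as "at least", taken against 6.53. Differences are in log2 units, tests are from limma, and the Benjamini-Hochberg adjustment covered every gene tested, with calls at 0.05. The number of arrays limits the precision.

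The array labelled colon WT 2 stood apart from the rest. It correlated with the rest of its tissue at a mean r of 0.875, where the 5 remaining colon arrays had 0.923 to 0.951. A list of small intestine markers, of which 8 of 9 were on the array, had a mean level of 12.17 there. It was 6.47 on colon WT 1 and 5.23 to 5.68 on the HET and KO colon arrays. On the stomach arrays the list stood at 7.59 to 8.11, above all colon arrays but colon WT 2. There Apoa1 of the list lay at 13.56 to 13.94 and Fabp6 at 4.26 to 5.94. Among the markers Fabp6, a bile acid carrier of the ileum, lay at 14.42 on colon WT 2, at 8.73 on colon WT 1 and between 5.84 and 6.61 in HET and KO colon. Car1, a carbonic anhydrase of colonocytes, lay at 6.65 on colon WT 2 and between 13.50 and 14.01 in the other colon arrays. The tissue labels held otherwise: all 5 listed colonocyte markers were higher in colon, and all 4 parietal cell markers were higher in stomach. Several results that rest on that array are given with and without it. Without it, colon WT 1 is the lone WT colon array and its spread is assumed to be that of the other groups. Spdef itself was read at 8.86 and 8.63 in the stomach KO arrays and at 8.94 to 9.19 in the other 4 stomach arrays. In colon it was read at 9.08 and 9.25 in KO, 10.27 and 9.81 in HET, and 10.97 and 8.74 in WT. Where its probes lie relative to the targeted part is not known. The submitters' processing notes name RMA on 3 arrays, both of stomach KO and colon WT 1, and MAS5 on the other 9. By these notes, processing and genotype cannot be told apart in stomach KO, nor in colon WT where WT 1 stands alone. Nor can processing and tissue be told apart within KO. The deposited values of the 12 arrays had trimmed mean intensities of 496.1 to 497.4, with 496.4, 497.1 and 496.4 on the 3 with the RMA note. Whether the notes describe the deposited values was not tested.

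Few members were bright enough to test. Of all genes, 71.1% passed the filter in at least 1 tissue, against 31.8% of the members, or 14 of 44. Those 14 were all ligands: 11 passed in both tissues, Ccl25 and Ccl28 passed in colon alone, and Ccl19 passed in stomach alone. None of the 13 receptors passed in either tissue, and 11 of them were below the filter level on every array. In bulk tissue, fewer cells of a type and less RNA per cell cannot be told apart.

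The receptors are the parts of the system carried by the leukocytes themselves. Ccr6, the receptor of Ccl20, ranged from 4.78 to 6.52 over the 12 arrays. Ccr10, a receptor of Ccl28, ranged from 4.15 to 6.21, and Ccr9, the receptor of Ccl25, from 4.22 to 6.38. Each of these 3 receptors was highest on colon WT 2 or colon KO 2, yet stayed under the filter level. Cx3cr1, the fractalkine receptor of macrophages and monocytes, ranged from 5.57 to 6.51. Cxcr5, the receptor of Cxcl13 on B cells, ranged from 4.21 to 6.24, and Cxcr3, the receptor of Cxcl9, Cxcl10 and Cxcl11, from 4.96 to 6.49. Cxcr6, the receptor of Cxcl16, ranged from 4.54 to 6.09, and Ccr3, the eotaxin receptor of eosinophils, from 4.15 to 5.75. The remaining receptors below the filter on every array were Ccr4 (4.20 to 5.63), Cxcr2 of neutrophils (4.19 to 4.77) and Ccr8 (4.11 to 4.36). Only Ccr1 and Ccr2 reached the filter level, each on the single array colon KO 2, at 6.69 and 6.60.

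Ccr1, a receptor that binds Ccl6 and Ccl9, was the receptor whose tissues separated completely. It lay at 4.86, 5.60, 5.34, 4.90, 4.92 and 6.10 in stomach WT 1, WT 2, HET 1, HET 2, KO 1 and KO 2. In the colon arrays, in the same order, it lay at 6.24, 6.46, 6.16, 6.19, 6.35 and 6.69. Every colon array was above every stomach array, although both tissue means were below the filter level and no fold is given. In a fit with no filter the colon minus stomach difference of Ccr1 was 1.06 (SE 0.24, adjusted p = 0.00656). Its other probe set, with both means also below the filter level, differed by 0.32. Without a filter, 13 of 44 members passed the threshold in this comparison, beside 35.7% of all genes, and 4 of the 13 were among the 30 dim members. Besides Ccr1 these were Ccr2, the monocyte receptor of Ccl2, at 0.68 (adjusted p = 0.0447), Xcl1, a ligand for cross-presenting dendritic cells, at 0.72 (adjusted p = 0.0457), and Cxcl15 at -0.81 (adjusted p = 0.0148).

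Of the ligands, 17 of 31 were also dim. They included the neutrophil attractants Cxcl1, Cxcl2 and Cxcl5, the monocyte attractants Ccl2, Ccl7 and Ccl12, and the interferon-induced Cxcl9, Cxcl10 and Cxcl11. Ccl3 and Ccl4, made by activated macrophages and T cells, reached at most 5.0 and 5.27. With Ccl1, Ccl7, Ccl22, Ccl24, Cxcl2, Cxcl10 and Cxcl15, they made 9 ligands that stayed below the filter level on every array. The other 8 dim ligands reached it on at most 1 array of a tissue. In stomach these were Ccl12 at 6.83 and Ccl2 at 6.54, both on WT 1. On colon WT 2, Cxcl9 reached 7.18 and Cxcl11 reached 7.15. On colon KO 2, Cxcl1 reached 6.87, Cxcl5 reached 6.63 and Ccl12 reached 6.54. The last ones were Ccl17, a ligand of Ccr4, at 6.75 on colon HET 1 and Xcl1 at 6.76 on colon KO 1.

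**Figure D1:**
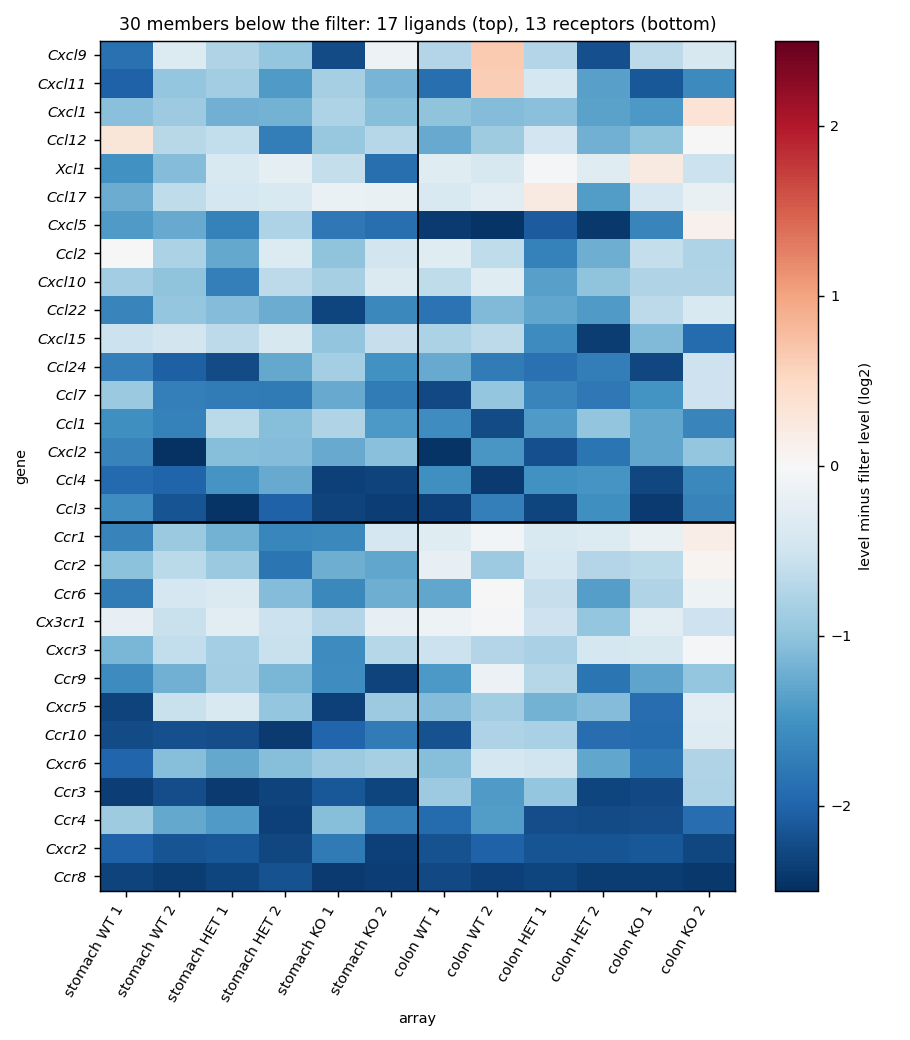
Heat map of the 30 members below the filter, 17 ligands above the line and 13 receptors below it, against the 12 arrays; colour is the level minus the filter level of 6.53 in log2 units. Red cells, above the filter level, are few and scattered, with Cxcl9 and Cxcl11 on colon WT 2 the strongest.

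The clearest result was higher ligand RNA in colon than in stomach. Over the mean of the 3 genotypes, 9 of the 14 tested members were higher in colon and 0 were lower, beside 21.4% and 27.3% of all 8393 genes tested, or 48.8% in either direction. At an unadjusted p under 0.05, 10 of the 14 differed, beside 55.4% of all genes. The median difference of the 14 was 1.06, and that of all genes tested was -0.05. Ccl25 and Ccl28 were tested because of their colon arrays alone, so these counts describe the 14 and not the 44. The arrays of the tissues did not overlap for 5 of the 14, all higher in colon (Ccl6, Ccl9, Ccl28, Ccl8 and Cxcl14), beside 12.3% of all genes.

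**Figure D2:**
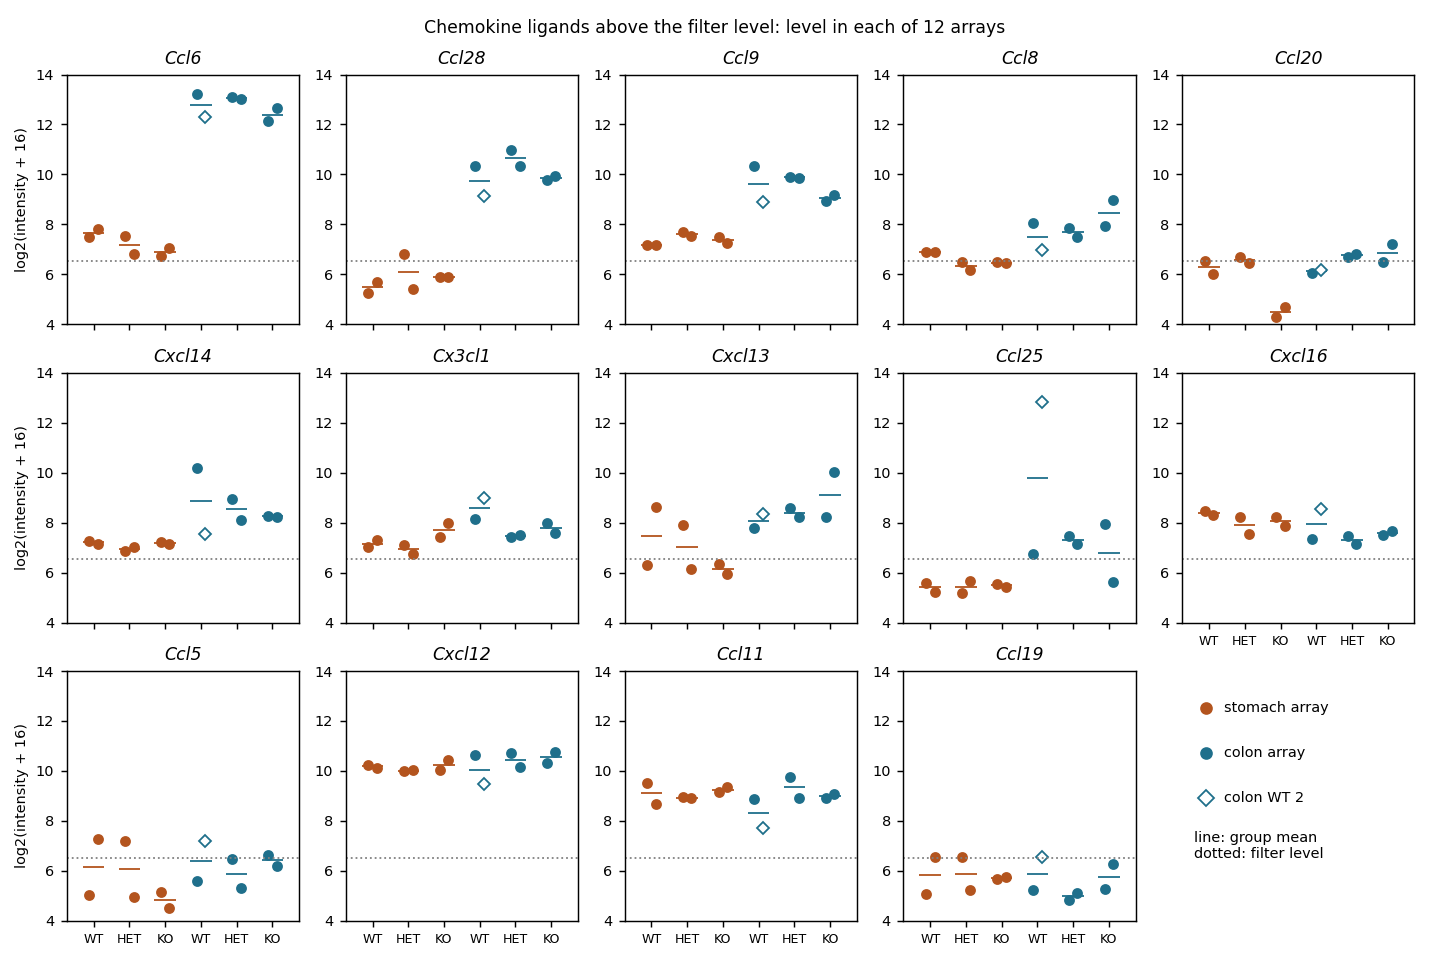
Level, log2(intensity + 16), of the 14 tested ligands in each of the 12 arrays, with group means as lines, the filter level of 6.53 dotted and colon WT 2 as an open diamond. Ccl6, Ccl9, Ccl28, Ccl8 and Cxcl14 sit higher in every colon array than in any stomach array, and Ccl25 stands at 12.81 on colon WT 2.

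Ccl6 and Ccl9 are related CC chemokines of rodents that bind Ccr1, and in the RefSeq annotation they are neighbours in the order of the 13 members on chromosome 11. Their promoter windows, 250 bases before to 50 after the gene start, are shown because both neighbours were higher in colon in every genotype. Both are on the minus strand, at chr11:83593038-83593337 for Ccl6 and chr11:83578587-83578886 for Ccl9 (RefSeq, GRCm38.p6), and are written 5′ to 3′ with capitals marking runs of at least 10 bases found in both.
Ccl6: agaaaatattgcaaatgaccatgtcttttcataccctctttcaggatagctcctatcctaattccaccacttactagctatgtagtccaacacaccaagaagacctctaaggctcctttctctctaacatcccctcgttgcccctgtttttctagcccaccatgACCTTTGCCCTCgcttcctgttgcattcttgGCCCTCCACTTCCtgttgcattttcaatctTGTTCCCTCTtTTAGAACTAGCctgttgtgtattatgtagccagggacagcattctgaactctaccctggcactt
Ccl9: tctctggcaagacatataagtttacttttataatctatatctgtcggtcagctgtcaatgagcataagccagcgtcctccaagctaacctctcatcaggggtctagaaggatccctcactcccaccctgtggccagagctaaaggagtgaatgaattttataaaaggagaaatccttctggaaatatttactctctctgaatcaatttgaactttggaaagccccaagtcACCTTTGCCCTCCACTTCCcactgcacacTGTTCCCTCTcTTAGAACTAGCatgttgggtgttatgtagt
The capitals covered 46 bases in 4 runs of the Ccl6 window and 40 bases in 3 runs of the Ccl9 window. The run TTAGAACTAGC began 14 bases before the gene start of Ccl6 and the run ACCTTTGCCCTCCACTTCC began 20 bases before that of Ccl9. The windows of 33 of the 44 members were found in the RefSeq table, among 32851 windows of all genes. The letters GGAA, the core that ETS factors bind, were on either strand in all 11 tested members with a window and in 96.0% of all windows. GGAT, the core preferred by Spdef, was in 8 of the 11 and in 79.6% of all windows, so neither set the members apart.

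Ccl6 showed the widest gap. In stomach it lay at 7.49 and 7.82 in WT, 7.52 and 6.82 in HET, and 6.73 and 7.05 in KO. In colon it lay at 13.22 and 12.30 in WT, 13.12 and 13.01 in HET, and 12.12 and 12.65 in KO. The tissues were thus separate in every genotype, at 7.24 ± 0.43 in stomach and 12.74 ± 0.45 in colon (SD, n = 6 each). The difference was 5.50 (SE 0.19, adjusted p = 2.97e-08), a 45.3-fold change on this scale. It was 5.11 in WT, 5.90 in HET and 5.50 in KO.

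Ccl9 had the same direction with a smaller difference. The stomach arrays read 7.16 and 7.18 in WT, 7.69 and 7.51 in HET, and 7.49 and 7.25 in KO. The colon arrays read 10.35 and 8.88 in WT, 9.89 and 9.87 in HET, and 8.95 and 9.16 in KO. No stomach array reached the lowest colon array, which was colon WT 2. The difference was 2.13 (SE 0.22, adjusted p = 4.21e-05), or 4.39-fold, and 2.38 without colon WT 2. A further probe set for Ccl9 gave 2.11 (adjusted p = 8e-05, with every probe set tested).

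Among the epithelial ligands, Ccl28 had low stomach levels and high colon levels. In stomach it read 5.26 and 5.70 in WT, 6.79 and 5.41 in HET, and 5.90 and 5.90 in KO, and all but HET 1 were below the filter level. In colon it read 10.32 and 9.15 in WT, 10.99 and 10.34 in HET, and 9.80 and 9.94 in KO. The fitted difference was 4.26 (SE 0.28, adjusted p = 2.26e-06), and against the filter level it was at least 3.56, or at least 11.8-fold. Its other probe set differed by 3.30 in the same direction (adjusted p = 2.12e-06). Of the B and plasma cell list, which covers the cells that Ccl28 is known to recruit, 3 of 6 tested genes were higher in colon and 0 were lower, beside 21.4% and 27.3% of all genes. Its median difference was 0.82 over the genotypes but 0.02 in WT and 0.03 in HET. Jchain, the joining chain of polymeric IgA, lay at 5.33 to 8.30 in stomach and 12.80 to 13.71 in colon. Ms4a1 lay at 4.63 to 8.52 in stomach and 5.08 to 8.73 in colon. What these cells contribute to the Ccl28 difference was not tested.

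Cxcl14, an epithelial and stromal ligand, was even across the stomach and uneven across the colon. The stomach arrays read 7.28 and 7.14 in WT, 6.86 and 7.02 in HET, and 7.22 and 7.14 in KO. The colon arrays read 10.20 and 7.55 in WT, 8.94 and 8.12 in HET, and 8.28 and 8.24 in KO. Every colon array was above every stomach array, but the WT colon arrays lay farthest apart and spanned the whole colon range. The difference was 1.45 (SE 0.38, adjusted p = 0.0117), or 2.72-fold, and 1.89 (adjusted p = 6.99e-06) without colon WT 2. A further probe set differed by 2.36 (adjusted p = 0.00118).

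Ccl20, the ligand of Ccr6, lay close to the filter level in both tissues. The colon arrays read 6.05 and 6.18 in WT, 6.71 and 6.82 in HET, and 6.50 and 7.22 in KO. The stomach arrays read 6.54 and 6.03 in WT, 6.68 and 6.46 in HET, and 4.30 and 4.70 in KO. The tissues overlapped in WT, and the low stomach arrays were those of KO. The difference over genotypes was 0.79 (SE 0.19, adjusted p = 0.00792), at least 0.05 against the filter level. By genotype it was -0.17 in WT, where both means were below the filter level, 0.19 in HET, and 2.36 in KO, where it passed the threshold (adjusted p = 0.00105, at least 0.33).

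Ccl25, the small intestine and thymus ligand of Ccr9, was dim in stomach, between 5.16 and 5.67 on all 6 arrays. In colon it read 6.75 and 12.81 in WT, 7.47 and 7.15 in HET, and 7.96 and 5.63 in KO. Colon WT 2, the array highest in small intestine markers, was far above every other array. The difference of 2.52 (SE 0.88, adjusted p = 0.0398) was at least 1.43 against the filter level. Without colon WT 2 it was 1.51 (SE 0.39, adjusted p = 0.00944). The call was lost when any 1 stomach array, colon HET 1, colon HET 2 or colon KO 1 was left out, with an adjusted p of at most 0.0965. The share of the small intestine markers in the first of these values was not tested.

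Ccl8 and Cx3cl1 were also higher in colon. Ccl8, a CC ligand known in the mouse for binding Ccr8, read 6.90 and 6.90 in WT stomach, 6.51 and 6.18 in HET, and 6.48 and 6.44 in KO. In colon it read 8.06 and 6.97 in WT, 7.87 and 7.51 in HET, and 7.94 and 8.98 in KO. All colon arrays were above all stomach arrays, and the difference was 1.32 (SE 0.23, adjusted p = 0.00136), or 2.49-fold. Cx3cl1, a membrane-anchored ligand of epithelium and endothelium also called fractalkine, read 7.0 and 7.30 in WT stomach, 7.11 and 6.76 in HET, and 7.41 and 7.99 in KO. In colon it read 8.16 and 8.98 in WT, 7.41 and 7.52 in HET, and 7.99 and 7.59 in KO. The tissues overlapped, the WT colon arrays were the highest, and the difference was 0.68 (SE 0.18, adjusted p = 0.0118), or 1.60-fold. Its other probe set gave 0.97 (adjusted p = 0.00432).

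Cxcl13, the ligand that gathers B cells into follicles through Cxcr5, was higher in colon by 1.66 (SE 0.48, adjusted p = 0.0174), or 3.15-fold. The stomach arrays read 6.29 and 8.61 in WT, 7.89 and 6.16 in HET, and 6.35 and 5.95 in KO. The colon arrays read 7.78 and 8.36 in WT, 8.58 and 8.23 in HET, and 8.22 and 10.03 in KO. Stomach WT 2 and HET 1 lay within the colon range, the other 4 stomach arrays lay below it, and colon KO 2 was the highest. A further probe set differed by 1.34 (adjusted p = 0.0376).

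The other 5 tested ligands did not pass the threshold between the tissues. Cxcl12, a stromal ligand that retains leukocytes and progenitors, ranged from 9.99 to 10.43 in stomach and from 9.49 to 10.77 in colon. It differed by 0.20 (adjusted p = 0.42), and its other probe set by -0.16. Without colon WT 2 the difference of Cxcl12 was 0.39 (adjusted p = 0.0365). Cxcl16, a membrane-anchored ligand of Cxcr6, read 8.46 and 8.31 in WT stomach, 8.23 and 7.56 in HET, and 8.24 and 7.88 in KO. In colon it read 7.35 and 8.55 in WT, 7.48 and 7.16 in HET, and 7.52 and 7.68 in KO, so that colon WT 2 was the highest array and the other 5 colon arrays lay at the low end. Its difference was -0.49 (adjusted p = 0.0865) over all arrays and -0.69 (adjusted p = 0.00435) without colon WT 2, while its other probe set gave -0.59 (adjusted p = 0.113). Without that array 10 members were therefore higher and 1 lower, beside 23.3% and 29% of all genes. Ccl11, the eotaxin that draws eosinophils through Ccr3, read 9.53, 8.67, 8.94, 8.90, 9.14 and 9.37 in stomach WT 1, WT 2, HET 1, HET 2, KO 1 and KO 2. In colon, in that order, it read 8.87, 7.73, 9.74, 8.93, 8.92 and 9.09. The tissues overlapped, with a difference of -0.21 (adjusted p = 0.484). Ccl5 and Ccl19 had both tissue means below the filter level, so no fold is given.

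**Figure D3:**
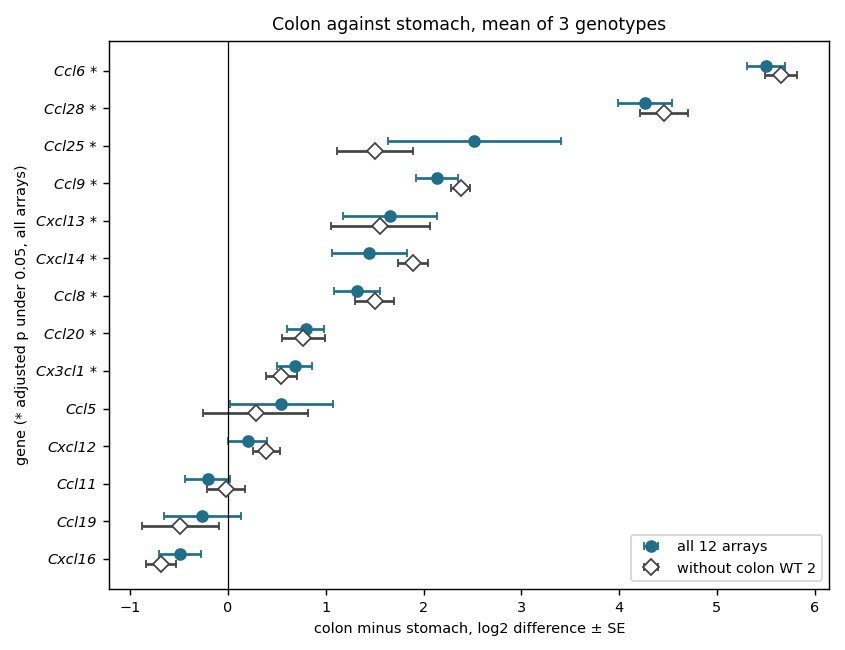
Colon minus stomach difference (log2, mean of 3 genotypes) with its standard error for the 14 tested ligands, over all 12 arrays (filled) and without colon WT 2 (open); an asterisk marks adjusted p under 0.05 over all arrays. Ccl6 at 5.50 and Ccl28 at 4.26 are farthest from 0, and leaving out colon WT 2 moves Ccl25 from 2.52 to 1.51.

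Within single genotypes fewer members passed, with 2 arrays a side. In WT 4 were higher in colon (Ccl6, Ccl28, Ccl9 and Cx3cl1) beside 10.9% of all genes. In HET 4 were higher (Ccl6, Ccl28, Ccl9 and Ccl8) beside 10.3%. In KO 6 were higher (Ccl6, Ccl28, Ccl20, Ccl8, Ccl9 and Cxcl13) beside 10.5%. By the processing notes, the KO stomach arrays were RMA and the KO colon arrays MAS5, so processing and tissue cannot be told apart in KO. Ccl6, Ccl28 and Ccl9 were the members past the threshold in every genotype. The 3 comparisons share no arrays, and whether a member's tissue difference changed with genotype was tested for KO against WT alone. Several of these calls were lost when 1 array was left out. The Ccl8 call in HET (1.34, adjusted p = 0.0412) was lost when any stomach array was left out, with an adjusted p of 0.202 without stomach HET 2, 0.0974 without stomach HET 1, and 0.0638 to 0.0651 without each of the others. It was also lost without colon HET 1 (0.208) and colon HET 2 (0.102). In KO, Cxcl13 (2.97, adjusted p = 0.0299) had an adjusted p of 0.0963 without stomach KO 1, 0.146 without stomach KO 2 and 0.166 without colon KO 2, and Ccl9 (1.69, adjusted p = 0.0114) had 0.0791 without stomach KO 2 and 0.0552 without colon KO 2. In WT, Cx3cl1 (1.42, adjusted p = 0.00916) had 0.0717 without stomach WT 1.

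The ligands Ccl5, Ccl19 and Cxcl13, tied to lymphoid tissue, differed between arrays of the same group. Ccl5, which draws T cells and other leukocytes, read 5.05, 7.26, 7.18, 4.96, 5.15 and 4.50 in stomach WT 1, WT 2, HET 1, HET 2, KO 1 and KO 2. Ccl19, which draws cells that carry Ccr7 into T cell zones, read 5.09, 6.57, 6.55, 5.22, 5.66 and 5.77 in the same order. Both, like Cxcl13, were highest on stomach WT 2 and stomach HET 1. In colon, Ccl5 read 5.59, 7.17, 6.47, 5.30, 6.64 and 6.20, and Ccl19 read 5.22, 6.56, 4.85, 5.11, 5.25 and 6.29. Colon WT 2 was the highest colon array for these 2 ligands.

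The lymphocyte marker lists followed the same arrays in stomach. The B and plasma cell list, with 7 of 9 genes matched, had a mean level of 7.21 on stomach WT 2 and 6.85 on HET 1, and of 5.47 to 5.77 on the other 4 stomach arrays. The T cell list, also with 7 of 9 matched, stood at 6.52 and 6.23 on those arrays and at 5.23 or lower on the others. Ms4a1, the B cell marker CD20, lay at 8.52 on stomach WT 2 and 7.65 on HET 1, and at 5.32 or lower on the other 4 stomach arrays. In colon the B and plasma cell list was highest on KO 2, at 8.96, where Cxcl13 was also highest, and it lay at 6.98 to 8.08 on the others. In summed intensity the list spanned 225.5 to 1111.9 in stomach WT, 385.7 to 889.9 in HET and 252.7 to 415.5 in KO. Their part in the levels of these ligands was not tested.

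**Figure D4:**
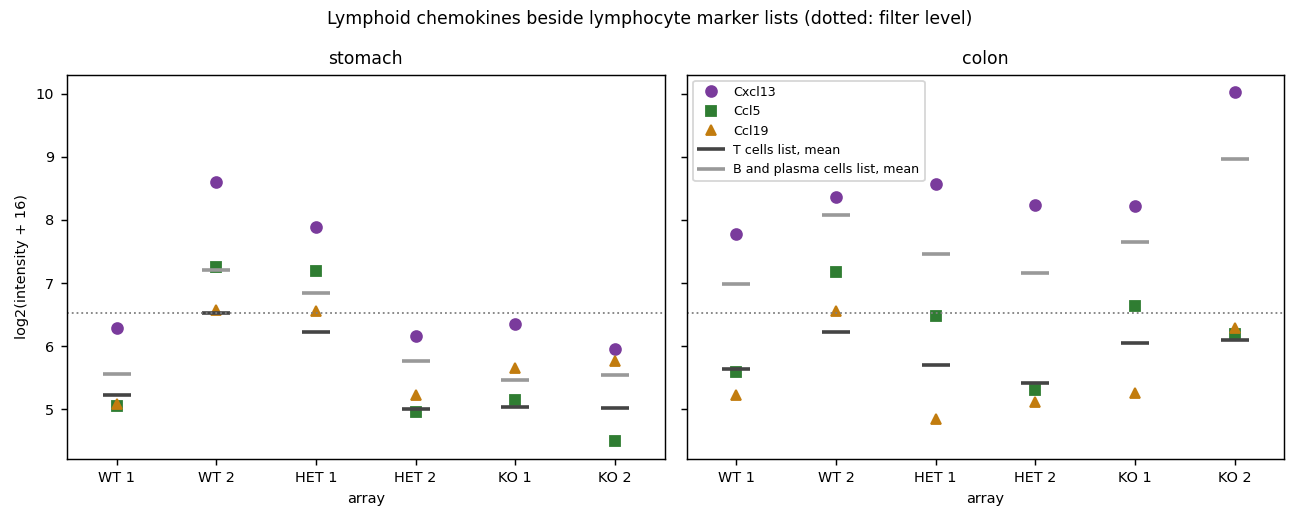
Level, log2(intensity + 16), of Cxcl13, Ccl5 and Ccl19 on each stomach and colon array, with the mean level of the T cell list and of the B and plasma cell list as bars and the filter level of 6.53 dotted. On stomach WT 2 and HET 1 the 3 ligands and both lists stand above the other stomach arrays, and Cxcl13 reaches 10.03 on colon KO 2.

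In stomach no member passed the threshold between Spdef genotypes. In limma, 0 of the 12 tested members passed in KO against WT, 0 in HET against WT and 0 in KO against HET, beside 0.0127%, 0% and 0.0127% of all 7858 genes. At an unadjusted p under 0.05 there were 2, 0 and 2 members, beside 3.56%, 2.2% and 1.86% of all genes. The median difference of the 12 from WT was -0.22 in KO and -0.19 in HET, and that of all genes was 0.01 and -0.01. These comparisons share the WT arrays. Ccl8 was tested in stomach because of its WT arrays alone, and Ccl20 because of WT 1 and HET 1 alone. Ccl5, Ccl19 and Cxcl13 were tested because of WT 2 and HET 1 alone. No KO array of these members reached the filter level, so the filter itself favoured lower KO values among them.

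Ccl20 had the smallest p in both stomach comparisons that involve KO. It entered the stomach test through WT 1 and HET 1 alone, at 6.54 and 6.68, where it was high. As given above, it lay at 4.30 and 4.70 in the KO arrays and between 6.03 and 6.68 in the 4 others, so that KO did not overlap either genotype. KO minus WT was -1.79 (SE 0.34, adjusted p = 0.539), with both means below the filter level. KO minus HET was -2.07 (SE 0.34, adjusted p = 0.565), a difference of at least 0.04 against the filter level. The adjusted p of KO minus WT ran from 0.239 to 1 over 18 alternatives.

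Among the stomach epithelial lists, the squamous forestomach and goblet cell markers were also lowest in KO. The squamous forestomach list, with all 7 genes matched, had a summed intensity of 2978.9 and 4837.7 in WT, 13251.8 and 732.6 in HET, and 114.8 and 158.1 in KO. Krt4, a keratin of that epithelium, lay at 8.58, 8.43, 9.52, 5.71, 4.31 and 4.57 in stomach WT 1, WT 2, HET 1, HET 2, KO 1 and KO 2, which left it below the filter level in HET 2 and in both KO arrays. All 7 list genes were below the filter level on both KO arrays, and 0 of the 7 passed the threshold in limma. In HET 2 the summed list lay below both WT arrays and above both KO arrays, with 3 of its 7 genes at or above the filter level. Ccl20 was 6.46 on that array. The goblet cell list had summed intensities of 8088.8 and 11061.3 in WT, 7963.5 and 9847.8 in HET, and 6963.6 and 7407.4 in KO. Its median KO minus WT difference was -0.88. The 2 tested genes of the follicle-associated epithelium list besides Ccl20 had a median of -0.46. In limma 0 genes of these 2 lists passed. The general epithelium and parietal cell lists had median KO minus WT differences of -0.12 and -0.07. The part of any of these lists in the Ccl20 levels was not tested, and the RMA note falls on the same KO arrays.

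The Ccl20 window is shown because NF-kB is a known inducer of this gene. It lies on the plus strand at chr1:83116516-83116815 (RefSeq, GRCm38.p6), and the capitals mark its match to the NF-kB consensus, found on the reverse strand, which begins 80 bases before the gene start.
Ccl20: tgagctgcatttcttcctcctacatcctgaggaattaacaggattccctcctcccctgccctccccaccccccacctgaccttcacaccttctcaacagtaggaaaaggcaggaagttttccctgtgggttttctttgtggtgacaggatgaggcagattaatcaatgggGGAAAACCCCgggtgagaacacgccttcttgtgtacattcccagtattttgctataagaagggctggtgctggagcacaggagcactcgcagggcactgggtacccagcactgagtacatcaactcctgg
The consensus, searched on both strands, was in 2 of the 11 windows of tested members (Ccl20 and Ccl9) and in 4.51% of all windows. TATAAA, the TATA box, was in 4 of the 11 and in 13.6% of all windows. A match describes the sequence and is no measure of binding.

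No other stomach difference passed the threshold. Non-overlapping arrays in KO against WT were seen for 2 members that were higher (Ccl9 and Cx3cl1) and 4 that were lower (Ccl20, Ccl6, Ccl8 and Cxcl16), beside 20.5% and 16.7% of all genes, or 37.2% in either direction. Ccl6 differed by -0.76 (adjusted p = 1) in KO and by -0.48 in HET. Cx3cl1 differed by 0.55 in KO from WT and by 0.76 from HET, but its other probe set, with both means below the filter level, had the opposite sign for KO minus WT. For Ccl9, too, the probe sets had opposite signs there, at 0.20 and -0.22. Cxcl13 differed by -1.30 (SE 0.83), at least 0.92 lower against the filter level. In HET against WT, 1 member was higher without overlap (Ccl9) and 4 were lower (Ccl8, Cxcl12, Cxcl14 and Cxcl16), beside 17% and 18.5%, or 35.6% in either direction. In KO against HET, 4 were higher (Ccl11, Cx3cl1, Cxcl12 and Cxcl14) and 2 were lower (Ccl20 and Ccl9), beside 18.6% and 13.5%, or 32.1% in either direction. The smallest p in HET against WT belonged to Ccl6, Ccl8 (-0.55), Cxcl16 (-0.49) and Ccl9 (0.43), each with an adjusted p of 1.

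In colon no member passed the threshold over all arrays either. Of the 13 tested members, 0 passed in limma in KO against WT, in HET against WT and in KO against HET, beside 0.0505%, 0.0253% and 0.0253% of all 7913 genes. At an unadjusted p under 0.05 there were 2, 2 and 0 members, beside 11.2%, 9.62% and 4.11% of all genes. The members' medians were 0.03, 0.26 and 0.10, against 0.06, 0.04 and 0.02 for all genes. Arrays did not overlap in KO against WT for Ccl11 and Ccl20, which were higher, and Cx3cl1, which was lower, beside 20.4% and 10.6% of all genes.

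Cx3cl1 had the smallest p in both colon comparisons with WT. Its WT arrays read 8.16 and 8.98, above the HET arrays at 7.41 and 7.52 and the KO arrays at 7.99 and 7.59. HET minus WT was -1.10 (SE 0.31, adjusted p = 0.419), and KO minus WT was -0.78 (adjusted p = 0.421). Without colon WT 2 these were -0.69 (adjusted p = 0.542) and -0.37 (adjusted p = 0.687). The other probe set gave -1.04 for KO minus WT (adjusted p = 0.354).

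Ccl8, Ccl20, Ccl11 and Ccl28 had positive differences from WT that did not pass. Ccl8 differed by 0.95 in KO (adjusted p = 0.437), with colon KO 2 the highest array at 8.98. Ccl20 differed by 0.74 in KO (adjusted p = 0.449, at least 0.33) and by 0.65 in HET (adjusted p = 0.528, at least 0.23). It was tested in colon because of HET 1, HET 2 and KO 2 alone. In HET, Ccl11 differed by 1.04 (adjusted p = 0.511) and Ccl28 by 0.93 (adjusted p = 0.528). Without colon WT 2, KO minus WT of Ccl8 was 0.40. HET minus WT was then 0.47 for Ccl11 and 0.35 for Ccl28. In HET against WT the arrays did not overlap for Ccl11, Ccl20 and Ccl28, which were higher, and for Cx3cl1, which was lower, beside 22.3% and 15% of all genes, or 37.4% in either direction.

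Ccl9, Ccl6 and Ccl28 were lower in both KO colon arrays than in both HET arrays. Ccl9 differed by -0.82, Ccl6 by -0.68 and Ccl28 by -0.80, each with an adjusted p of 0.998. Ccl8 differed by 0.78 in the opposite direction. Non-overlapping arrays were seen for 3 higher (Ccl8, Cx3cl1 and Cxcl16) and 3 lower members, beside 20% and 15.1% of all genes. This comparison holds no WT array.

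The WT comparisons of colon depended on which WT array was used. Without colon WT 2, 2 of 12 tested members passed in KO against WT, both lower, beside 0.268% of all genes. Ccl9 differed by -1.30 (SE 0.19, adjusted p = 0.0366) and Cxcl14 by -1.94 (SE 0.30, adjusted p = 0.0376), against -0.56 and -0.61 over all arrays. Ccl6 differed by -0.83 (adjusted p = 0.338) and Ccl25 by 0.05. The lone WT array of that fit, colon WT 1, carries the RMA note and the KO and HET colon arrays the MAS5 note. By these notes, processing and genotype cannot be told apart there. Colon WT 1 also had a higher mean level of the small intestine list, 6.47, than the KO and HET colon arrays, and its part was not tested. In HET against WT, 0 passed without that array, beside 0.0767% of all genes, with Cxcl14 at -1.67 (adjusted p = 0.13).

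Leaving out colon WT 1 instead gave other members. The lone WT colon array was then colon WT 2, the array highest in small intestine markers, where Ccl25 lay at 12.81. The calls below set KO or HET colon against that array alone. In KO against WT, 4 passed: Ccl25 at -6.02 (adjusted p = 0.0011), Cx3cl1 at -1.19 (adjusted p = 0.0362), Ccl8 at 1.50 (adjusted p = 0.0385) and Cxcl12 at 1.06 (adjusted p = 0.0342), beside 12.3% of all genes. In HET against WT, 6 passed, with Ccl11, Ccl9 and Cxcl12 higher and Ccl25, Cx3cl1 and Cxcl16 lower, beside 13.7%. Ccl9 and Cxcl14, which fell in KO without colon WT 2, differed by 0.18 and 0.71 without colon WT 1. Each of these fits rests on a lone WT colon array.

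**Figure D5:**
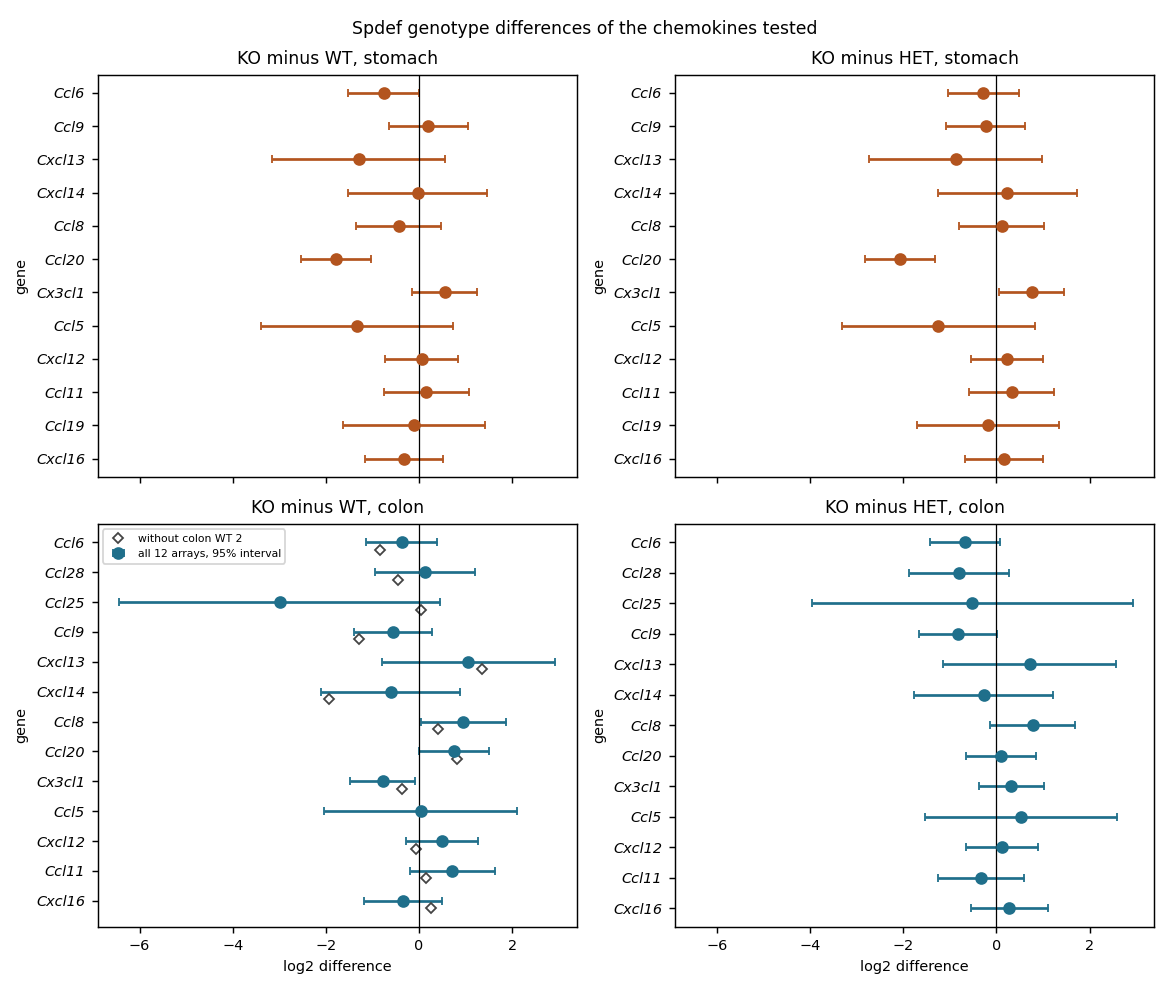
Log2 differences with 95% intervals of the tested ligands for KO minus WT and KO minus HET, in stomach (top) and colon (bottom), over all 12 arrays; open diamonds give KO minus WT in colon without colon WT 2, for the 12 ligands tested then. The intervals are per gene and not adjusted. The stomach interval of Ccl20 lies below 0 against both genotypes, but neither difference passed in limma (adjusted p = 0.539 against WT and 0.565 against HET). For Ccl9 and Cxcl14 the open diamonds lie at -1.30 and -1.94.

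The KO effect was also compared between the tissues. In limma 0 of the 14 tested members passed, beside 0.0238% of all genes, and 3 had an unadjusted p under 0.05, beside 4.63%. KO minus WT of Ccl20 was -1.79 in stomach and 0.74 in colon, an interaction of 2.53 (SE 0.47, adjusted p = 0.711). Cx3cl1 gave -1.33 (SE 0.44, adjusted p = 0.888), and Ccl8 gave 1.39 (adjusted p = 0.888). KO minus WT by the other probe set of Cx3cl1 was negative in both tissues. It was -0.65 in stomach, with both means below the filter level, and -1.04 in colon. Without colon WT 1, the lone WT colon array was colon WT 2, the array highest in small intestine markers. The interaction was then 2.46 for Ccl20 and -1.74 for Cx3cl1, and it was negative for Ccl25. Such values set KO colon against colon WT 2 alone.

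Genes around the chemokine system differed between the tissues in both directions, and the counts below stand beside 21.4% of all genes higher, 27.3% lower and 48.8% either way. Of related ligands and receptors outside the group, 15 of 17 were on the array, 9 were tested, 2 were higher and 4 were lower in colon. Cxcl17, a mucosal ligand, was lower by at least 4.88, Ccl27a differed by -0.98 and Mif, a cytokine that binds chemokine receptors, by -0.57. Dpp4, a protease that trims chemokines, was higher by at least 3.17. Of the receptor signalling genes, 29 of 35 were on the array, 21 were tested, 7 were higher and 2 lower, again a share near that of all genes (48.8% either way). Rgs1, a brake on receptor signalling in lymphocytes, was higher by at least 2.46, the phospholipase Plcb3 by 1.69 and the kinase Ptk2b by 0.99, while the arrestin Arrb2 differed by -1.56.

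Of the genes that induce chemokines, 24 of 28 were on the array, 16 were tested, 6 were higher and 1 lower in colon, also near the 48.8% of all genes called either way. Irf1, an interferon response factor, was higher by 2.28, Relb of the NF-kB family by at least 2.02, Tlr2 by 1.43 and the interferon receptor Ifngr1 by 0.70. Of the adhesion molecules of leukocyte entry, 11 of 12 were on the array, 4 were tested and 0 passed. The macrophage and monocyte list, with all 11 genes matched, had 4 of 9 tested genes higher in colon and 0 lower, beside 21.4% and 27.3% of all genes, and its mean level was 7.24 to 7.69 in stomach and 7.71 to 8.35 in colon. The median colon minus stomach difference of the macrophage and monocyte list was 0.41. Of the goblet cell list, 5 of 5 tested genes were higher in colon and 0 were lower, with a median difference of 7.08. The absorptive colonocyte list also had 5 of 5 higher and 0 lower, with a median of 7.55. The part of any of these cell lists in the tissue differences of Ccl6, Ccl9 and Ccl8 was not tested. In KO against WT, 0 genes of these 4 pathway lists passed in limma in stomach or colon.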

How the data were processed

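Probe set intensities of 12 Affymetrix mouse genome arrays were used as deposited; per the submitters' processing notes, the authors made the intensity values with MAS5 on 9 arrays and RMA on 3. Of 22716 probe sets, 18003 had 1 gene in the platform annotation, 287 had several, 4336 had none and 90 were controls, and the first kind gave 11807 genes. Symbols were updated through gene IDs for 17977 probe sets and kept for 26. Levels are log2(intensity + 16) after quantile normalization over the 12 arrays. Genes at or above the 40th percentile (6.53) in at least 2 of 6 arrays of a tissue were fitted in limma 3.58.1 (R 4.3.3) with a mean per group and an intensity trend (6 residual and 3.29 prior degrees of freedom), after the procedure was tested on simulated data. Deviations of replicate 1 from the group mean were correlated over 15 pairs of groups, of which 1 was above 0.1 (range -0.32 to 0.29). Between stomach and colon of a genotype the correlation was 0.067 in WT, 0.021 in HET and 0.077 in KO. Tissues of 1 animal need not share deviations, so these values cannot settle whether replicate numbers pair the arrays. Alternatives changed the normalization, offset, filter, trend, probe set choice and replicate block, or left out 1 array. Any member could be named; values on every array are given for Ccl6, Ccl9, Ccl20 and Cxcl14, for the members with the 4 smallest p-values in a genotype comparison, and for the largest tissue differences past the threshold. Ccr1 and Ccl19, which this rule does not cover, were added after their values were seen. Of each pathway list, up to 4 genes with the smallest p-values are named. The members and all lists were chosen with earlier results of these data known. Promoter windows are RefSeq's.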

Additional observations from a re-analysis of the deposited data

Results flagged for a closer look

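For Ccl20, both stomach KO arrays lay below both WT arrays and both colon KO arrays lay above both WT arrays. The difference between the KO effects, colon minus stomach, was 2.53 and did not pass the threshold in limma (adjusted p = 0.711). For Cx3cl1, both stomach KO arrays lay above both WT arrays and both colon KO arrays lay below them. The difference between the KO effects was -1.33 and did not pass either (adjusted p = 0.888). The other probe set of Cx3cl1 did not show opposite signs. Its KO minus WT was -0.65 in stomach, with both means below the filter level, and -1.04 in colon. KO and WT arrays did not overlap for 37.2% of all genes tested in stomach and 31.1% in colon. The share of genes separated in opposite directions was not counted.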

How the results depend on the processing

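Of 230 alternative counts of called members over 11 comparisons, 226 stayed within 1.5 times the reported count. The others came from leaving out a WT colon array: KO against WT in colon ranged from 0 to 4, HET against WT from 0 to 6 and the difference of the KO effect between tissues from 0 to 3. Of single-gene values, 1457 kept their direction and side of the threshold, 15 passed it newly, 29 no longer passed and 16 turned sign. The 16 sign changes all came from leaving out 1 array. In KO minus WT, stomach, Cxcl14 ranged from -0.10 to 0.042, and was 0.013 without stomach KO 2. In KO minus HET, stomach, Ccl6 ranged from -0.63 to 0.073. In KO minus WT, colon, the ranges were -6.02 to 0.048 for Ccl25, -0.83 to 0.085 for Ccl6, -1.30 to 0.18 for Ccl9 and -1.94 to 0.71 for Cxcl14. In HET minus WT, colon, they were -0.16 to 0.76 for Ccl6, -0.47 to 0.999 for Ccl9 and -1.67 to 0.98 for Cxcl14, which was 0.07 without colon HET 2. In KO minus HET, colon, they were -0.26 to 0.46 for Ccl20 and -0.68 to 0.14 for Cxcl14. Colon minus stomach in WT ran from -0.43 to 0.088 for Ccl20. The difference of KO effects ran from -0.073 to 0.85 for Ccl6 and from -1.91 to 0.74 for Cxcl14. The cause was not tested.

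With the replicate block, 0 members were called in each genotype comparison and in the difference of KO effects. The tissue comparison then called 8 over the mean of genotypes, without Ccl25 (adjusted p = 0.0512), 4 in WT, 3 in HET, without Ccl8, and 6 in KO. Signal near the filter level limits every statement on the 30 dim members and on Ccl20.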
